A study of Mus musculus with 17 samples.

Results

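B cells from mouse spleen treated with MSA2 plus IPI-549 were compared with untreated Control B cells across all genes. The comparison took the libraries whose titles name these treatments, 3 of the combination and 3 of Control, which are 6 of the 17 libraries of the series. The design text says that the cells were harvested from KPC mice, a genetic model of pancreatic cancer, and then incubated with or without the drugs, whereas the genotype label of every library reads WT. The treatment label reads Control for every library, so the groups rest on the titles. No dose, incubation time, age or sorting step is given, the B cell groups share the spleen as source, and no title names IPI-549 alone. A further group of 3 libraries, B cells with MSA2 alone, entered the fit and serves for further comparisons. The labels do not say that the libraries of a group came from separate mice, so the p-values measure the spread between these libraries, which may be technical.

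MSA2 is a small-molecule agonist of STING, the adaptor that normally answers DNA in the cytosol. STING engages the kinase TBK1, which activates IRF3 for type I interferon genes, and it also feeds NF-kB and stress signalling. Secreted interferon then acts through its receptor on a large set of antiviral genes. IPI-549 (eganelisib) inhibits the gamma isoform of phosphoinositide 3-kinase, whose catalytic subunit is encoded by Pik3cg. The series title names regulatory B cells, which restrain immunity largely through IL-10 and IL-35.

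The combination libraries held 47202534, 44355591 and 48050413 counts and the Control libraries 51433008, 46085064 and 45113819. Levels are given as CPM, counts scaled to a common library size. Summed CPM of 12 B cell markers were 13160 to 14210 in the combination and 12900 to 14050 in Control, and none of the 12 was called. Cd74, the invariant chain of MHC class II, stood at 10970, 10490 and 10910 CPM in the combination and 10300, 10080 and 11130 CPM in Control. Summed markers of T cells, NK cells and neutrophils were low in both groups and lower in the combination, with values given beside the genes that fell.

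Of 16180 genes tested, 171 (1.06%) passed an adjusted p of 0.05 in edgeR's quasi-likelihood test, 111 (0.686%) higher and 60 (0.371%) lower in the combination than in Control. The genes that rose were led by type I interferons, interferon-inducible antiviral genes, Tnf, Il6 and chemokines, the stress regulator Ppp1r15a, and Pmaip1 and Bbc3, which promote cell death. The genes that fell were fewer, and included Socs3, Hes1, Cebpb, S1pr1 and S1pr4. Among the 111, 38 differed by more than 4-fold, 34 by 2- to 4-fold and 39 by less than 2-fold. Among the 60, the same classes held 5, 17 and 38. The median log2 fold change over all genes tested was -0.02, and 1563 genes had an unadjusted p under 0.05. In each of the 171 called genes the combination libraries lay entirely above or entirely below the Control libraries, which held for 1262 (7.8%) of all tested genes above and 1759 (10.9%) below. Of the 111 higher genes 66, and of the 60 lower genes 16, kept their call whichever of the 9 libraries was left out. The total was 91 without Control replicate 2 and 112 without combination replicate 1. The lower genes numbered 26, 30 and 33 without combination replicates 1, 2 and 3, and 23 without Control replicate 2. DESeq2 called 193 higher and 192 lower genes. A fit without the MSA2 libraries called 212 genes, of which 158 were among the 171.

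**Figure D1:**
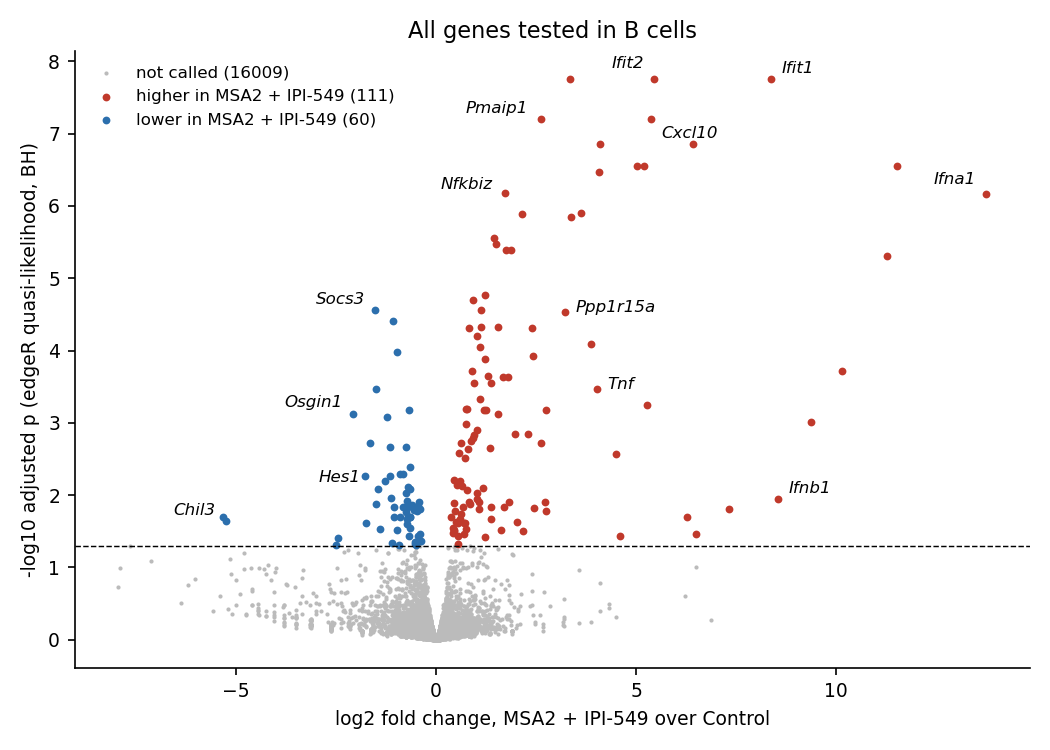
Each point is 1 of 16180 genes, with the log2 fold change of MSA2 plus IPI-549 over Control on the horizontal axis and -log10 of the adjusted p on the vertical axis, and the dashed line marks 0.05. Of the called genes, 111 lie to the right of 0 and 60 to the left. The outermost points are fitted values of genes with 0 counts in a group, such as Ifna1, and are no measure of the size of the change.

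Type I interferon genes were expressed in the combination and at or near 0 in Control. Of 21 listed type I, II and III interferon genes 11 were tested, and 8 of them, all of type I, rose (against 0.686% of all tested genes). These 8 had at most 1 count over Control, so they passed the filter only through treated libraries and could only be called higher. Their share, and the median of the 11, therefore follow in part from the filter. Ifna1 had 43.2, 41.7 and 28.9 CPM in the combination and 0 counts in every Control library. With Control set to a floor of 3 counts over the group, Ifna1 was at least 1746-fold higher in the combination (adjusted p = 6.93e-07, edgeR). Ifna4 had 33.6, 33.6 and 19.8 CPM in the combination and 1 count over the whole of Control, a ratio of 4002 with a 95% interval, for counting error only, of 718 to 158100. By the same floor Ifna16 was at least 313-fold, Ifna2 at least 142-fold, Ifna5 at least 83.1-fold, Ifna6 at least 20.1-fold and Ifnz at least 11.2-fold higher. These genes encode subtypes of interferon alpha and, for Ifnz, interferon zeta. With the genes absent from Control at their bound, the median log2 fold change of the 11 was 5.54.

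Ifnb1 encodes interferon beta, the type I interferon that IRF3 and NF-kB switch on together. It had 1.23, 1.54 and 0.286 CPM in the combination and 0 counts in Control, and was at least 46.7-fold higher (adjusted p = 0.0114, edgeR). Each combination library was above each Control library for all 8 genes, and replicate 3 of the combination was the lowest for all of them except Ifnz. The call of Ifna6 was lost without combination replicate 1 and without Control replicate 2 (adjusted p 0.0572), and that of Ifnz with each library left out except MSA2 replicates 1 and 3 (adjusted p up to 0.107). Ifng, interferon gamma, had 5.50, 4.61 and 1.85 CPM in the combination and 1.42, 1.71 and 1.17 CPM in Control, a log2 difference of 1.47 that missed the threshold (adjusted p = 0.15, edgeR). It passed in 3 of 19 alternative fits, 1 of them without combination replicate 3 (adjusted p = 0.0176, edgeR). The 8 interferon genes and the called predicted genes Gm13283 and Gm13285 lie together on chromosome 4 (GRCm38, 88522025 to 88850656), in the type I interferon cluster. Members of this cluster are close copies of each other, so the division of reads between them is uncertain.

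Interferon-inducible effector genes rose in a limited group. Of 39 tested IFIT, OAS and other antiviral effectors, 11 rose and none fell (28.2% called, against 1.06% of all tested genes). The other 28 were not called, and 25 of the 28 lay within 0.5 of 0 on the log2 scale. The median log2 fold change of the 39 was 0.12. Ifit1, whose protein binds viral RNA that lacks the host cap, had 594.7, 633.3 and 460.4 CPM in the combination and 1.94, 1.31 and 1.82 CPM in Control. The groups were far apart, and the log2 fold change was 8.37 ± 0.25 (SE, adjusted p = 1.74e-08, edgeR). Its neighbours on chromosome 19 (34550694 to 34650009), Ifit3b, Ifit2, Ifit3 and Ifit1bl1, rose by 6.43, 5.45, 5.19 and 2.62 on the log2 scale. Oasl1, an OAS-like protein that in mouse restrains translation of Irf7, had 214.2, 256.6 and 161.9 CPM in the combination and 17.2, 17.4 and 16.7 CPM in Control. Rsad2 (viperin, an enzyme that makes a chain-terminating nucleotide) had 54.1, 62.4 and 24.4 CPM in the combination and 7.77, 6.45 and 6.75 CPM in Control. All 3 combination libraries exceeded all 3 Control libraries for both genes. Cmpk2, a mitochondrial nucleotide kinase next to Rsad2, rose by 1.35, the dynamin-like GTPase genes Mx2 and Mx1 by 2.43 and 0.71, and Rtp4 by 1.98 on the log2 scale. The call of Mx1 was lost without any 1 of the combination or Control libraries (adjusted p up to 0.111).

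Isg15, a ubiquitin-like protein that is attached to other proteins in infected cells, had 242.5, 246.3 and 185.7 CPM in the combination and 12.2, 13.8 and 13.9 CPM in Control. Its log2 fold change was 4.08 ± 0.19 (SE, adjusted p = 3.34e-07, edgeR). The other 5 tested genes of the ISG15 pathway were not called (16.7% of the list called, against 1.06% of all tested genes). Usp18, which removes ISG15, had 4.09, 2.68 and 3.85 CPM in the combination and 2.76, 2.82 and 2.88 CPM in Control, so that the groups overlapped. Other interferon-inducible genes that commonly stand beside Ifit1 were not called. Oas2, a sensor of double-stranded RNA, had 6.43, 6.69 and 7.57 CPM in the combination and 6.13, 6.91 and 6.25 CPM in Control (adjusted p = 0.88, edgeR). Bst2 (tetherin) had 32.4, 28.4 and 28.5 CPM in the combination and 31.4, 32.0 and 30.2 CPM in Control.

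Among guanylate-binding proteins and immunity-related GTPases, 2 of 19 rose and none fell (10.5% called, against 1.06% of all tested genes). The median log2 fold change was 0.11. Irgm1, a regulator of autophagy and of the other GTPases, rose by 1.02, and Gbp5 rose by 0.48. The call of Gbp5 was lost without combination replicate 2 or 3 or Control replicate 1 or 2 (adjusted p up to 0.125). No member of the 7 Schlafen genes or the 7 interferon-linked PARP genes was called, against 1.06% of all tested genes. The highest, Slfn2, had 158.8, 170.7 and 141.3 CPM in the combination and 117.2, 88.1 and 94.2 CPM in Control. Its log2 difference of 0.65 had an adjusted p of 0.0546 (edgeR) and passed the threshold in 11 of 19 alternative fits. Samd9l, an antiviral translation inhibitor, rose by 0.68 on the log2 scale, a call lost with any combination library except replicate 3, or any Control library, left out (adjusted p up to 0.071).

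These 5 promoter stretches are shown because they belong to called genes with a match to an interferon- or NF-kB-responsive motif in the 250 bases before the RefSeq start (build GRCm38.p6). Matches are in capitals and each line reads 5′ to 3′ on the gene's strand. The interferon-stimulated response element was searched as GAAA, any 2 bases and GAAA, and the kappaB motif as GGGA, any base and TTTCC, both on either strand.
Ifit1 (chr19:34640639-34640888, plus strand): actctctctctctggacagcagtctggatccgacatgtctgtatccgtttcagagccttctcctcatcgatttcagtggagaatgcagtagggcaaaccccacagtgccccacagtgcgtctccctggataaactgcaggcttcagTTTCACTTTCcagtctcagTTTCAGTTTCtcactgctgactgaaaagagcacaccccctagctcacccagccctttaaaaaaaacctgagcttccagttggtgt
Isg15 (chr4:156200819-156201068, minus strand): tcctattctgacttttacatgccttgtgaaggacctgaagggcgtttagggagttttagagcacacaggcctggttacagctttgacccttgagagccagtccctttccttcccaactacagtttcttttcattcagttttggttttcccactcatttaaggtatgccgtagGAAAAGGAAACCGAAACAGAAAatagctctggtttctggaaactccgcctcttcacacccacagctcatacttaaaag
Rsad2 (chr12:26456453-26456702, minus strand): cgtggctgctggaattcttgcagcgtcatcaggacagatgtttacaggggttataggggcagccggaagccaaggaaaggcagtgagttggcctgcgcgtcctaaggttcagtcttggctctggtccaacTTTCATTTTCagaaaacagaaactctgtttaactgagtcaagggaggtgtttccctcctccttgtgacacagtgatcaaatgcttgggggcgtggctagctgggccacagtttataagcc
Cxcl10 (chr5:92348890-92349139, minus strand): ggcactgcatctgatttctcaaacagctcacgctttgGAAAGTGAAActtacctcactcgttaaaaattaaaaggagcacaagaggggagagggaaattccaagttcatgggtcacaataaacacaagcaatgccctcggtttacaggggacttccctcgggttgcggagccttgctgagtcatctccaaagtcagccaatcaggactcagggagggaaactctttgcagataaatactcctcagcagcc
Il6 (chr5:30012864-30013113, plus strand): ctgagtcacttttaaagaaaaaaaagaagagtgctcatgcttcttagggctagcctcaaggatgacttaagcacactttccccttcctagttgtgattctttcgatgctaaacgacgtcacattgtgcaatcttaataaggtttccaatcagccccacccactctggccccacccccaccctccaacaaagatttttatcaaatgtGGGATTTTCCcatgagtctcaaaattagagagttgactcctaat
The Ifit1 stretch holds 2 matches, the nearer one ending 76 bases before the start, and the Isg15 stretch holds 3 matches that overlap each other. The Il6 match begins 44 bases before the start.

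Over the 300-base windows that reach 50 bases past the start, the interferon-stimulated response element was present for 19 of 84 higher genes with a window (22.6%), 2 of 45 lower genes (4.44%) and 442 of 10882 tested genes (4.06%). The higher genes with a match included Ifit1, Ifit3, Ifit3b, Ifit1bl1, Isg15, Rsad2, Cxcl10, Irgm1, Gbp5, Ppp1r15a, Plk2 and 5 interferon alpha genes. These interferon alpha genes passed the filter only through treated libraries, so they could only be called higher, and they are close copies of each other. The Ifit genes with a match are related neighbours too. The share of 22.6% thus follows in part from the filter and from related genes, and shares without them were not computed. The kappaB motif was present for 2 of the 84 higher genes (2.38%), Il6 and Gbp5, for none of the 45 lower genes and for 61 tested genes (0.561%). The AP-1 motif TGAGTCA was present for 7.14% of higher, 6.67% of lower and 4.63% of all tested genes. The STAT motif TTCNNNGAA was present for 11.9% of higher, 8.89% of lower and 8.41% of all tested genes. Its matches among the higher genes included Ifna1 and Ifna5, to which the same limit applies. The CRE motif TGACGTCA, also searched, was present for 3.57% of higher, 4.44% of lower and 3.44% of all tested genes. These are counts of letters in a window, and binding was not measured.

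Of 25 tested genes for nucleic acid sensing and the STING pathway, 1 rose and none fell (4.0% called, against 1.06% of all tested genes). Their median log2 fold change was -0.02, and a single call in so short a list is not far from that share. The gene that rose, Trex1, encodes the exonuclease that degrades cytosolic DNA upstream of STING. It had 78.6, 75.3 and 93.2 CPM in the combination and 28.6, 22.96 and 26.01 CPM in Control (log2 fold change 1.67, adjusted p = 2.30e-04, edgeR), and it shares exon bases with Atrip, so reads of the pair may be mixed. Sting1, the target of MSA2, had 39.7, 35.9 and 41.3 CPM in the combination and 35.3, 35.8 and 38.7 CPM in Control. Tbk1 and Irf3 differed by -0.12 and -0.08 on the log2 scale (adjusted p = 0.80 and 0.84, edgeR). Ifih1, the RNA sensor MDA5, had 9.46, 11.4 and 6.54 CPM in the combination and 4.82, 4.81 and 5.15 CPM in Control, with no overlap, but an adjusted p of 0.093 (edgeR). It passed in 5 of 19 alternative fits, 1 of them without combination replicate 3 (adjusted p = 0.0178, edgeR).

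Of 38 IRF, JAK-STAT and SOCS genes, 2 rose and 1 fell (7.89% called, against 1.06% of all tested genes). Their median log2 fold change was 0.02. Irf7, the factor that drives interferon alpha genes, had 110.6, 124.1 and 139.2 CPM in the combination and 63.1, 61.1 and 50.2 CPM in Control, a log2 fold change of 1.10 with an SE of 0.12 (adjusted p = 4.72e-04, edgeR). Il10ra, the ligand-binding chain of the IL-10 receptor, rose by 0.45, a call lost with 5 of the 9 libraries left out in turn, all 3 of the combination and Control replicates 2 and 3 (adjusted p up to 0.105). Socs3 moved the other way. This feedback inhibitor of cytokine receptors that use STAT3 had 33.6, 34.7 and 41.9 CPM in the combination and 93.8, 115.8 and 106.4 CPM in Control. The groups were well separated, and the log2 fold change was -1.52 ± 0.11 (SE, adjusted p = 2.73e-05, edgeR).

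A few inflammatory cytokine and chemokine genes rose. Of 28 tested cytokine genes 3 rose and 1 fell (14.3% called, against 1.06% of all tested genes), and their median log2 fold change was -0.11. Of 17 chemokine genes 2 rose and none fell (11.8% called), with a median of 0.15. Tnf had 118.3, 160.2 and 43.8 CPM in the combination and 5.54, 7.85 and 6.39 CPM in Control (log2 fold change 4.03 ± 0.41, SE, adjusted p = 3.41e-04, edgeR). Combination replicate 3 was the lowest of its group and still above all of Control. Its neighbour Lta, lymphotoxin alpha, rose by 1.37, a call lost without Control replicate 1 or 2 (adjusted p up to 0.0829). Il6, a growth factor for plasma cells, had 3.16, 2.27 and 1.63 CPM in the combination and 0.140, 0.153 and 0.180 CPM in Control (log2 fold change 3.88, adjusted p = 8.11e-05, edgeR). Il1b went the other way, with 10.1, 8.27 and 6.56 CPM in the combination and 21.7, 13.5 and 18.1 CPM in Control (adjusted p = 0.0459, edgeR). Its call was lost without each combination library, Control replicate 1 or 3 or MSA2 replicate 1 (adjusted p up to 0.174), and the MSA2 libraries averaged 296.8 CPM.

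Cxcl10, the ligand of CXCR3 on effector T cells, had 91.2, 89.3 and 72.8 CPM in the combination and 2.26, 1.49 and 2.34 CPM in Control, a log2 fold change of 5.38 with an SE of 0.20 (adjusted p = 6.36e-08, edgeR). Cxcl10 shares exon bases with Art3, so the source of some reads is uncertain. Cxcl9, another CXCR3 ligand, had 3.87, 3.05 and 3.19 CPM in the combination and 2.88, 2.87 and 3.37 CPM in Control (adjusted p = 0.81, edgeR). Ccl4, an inflammatory chemokine, had 126.1, 110.6 and 72.3 CPM in the combination and 9.75, 10.7 and 9.62 CPM in Control, a log2 fold change of 3.36. Ccl3, a related chemokine, had 15.3, 15.0 and 3.87 CPM in the combination and 5.22, 6.76 and 6.93 CPM in Control, and combination replicate 3 alone lay below the Control range. Without that library its adjusted p was 0.00155, against 0.51 with it. Ccrl2, a chemerin-binding receptor, rose by 4.09 on the log2 scale, with 70.8, 69.2 and 54.8 CPM in the combination and 3.46, 3.37 and 4.61 CPM in Control.

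**Figure D2:**
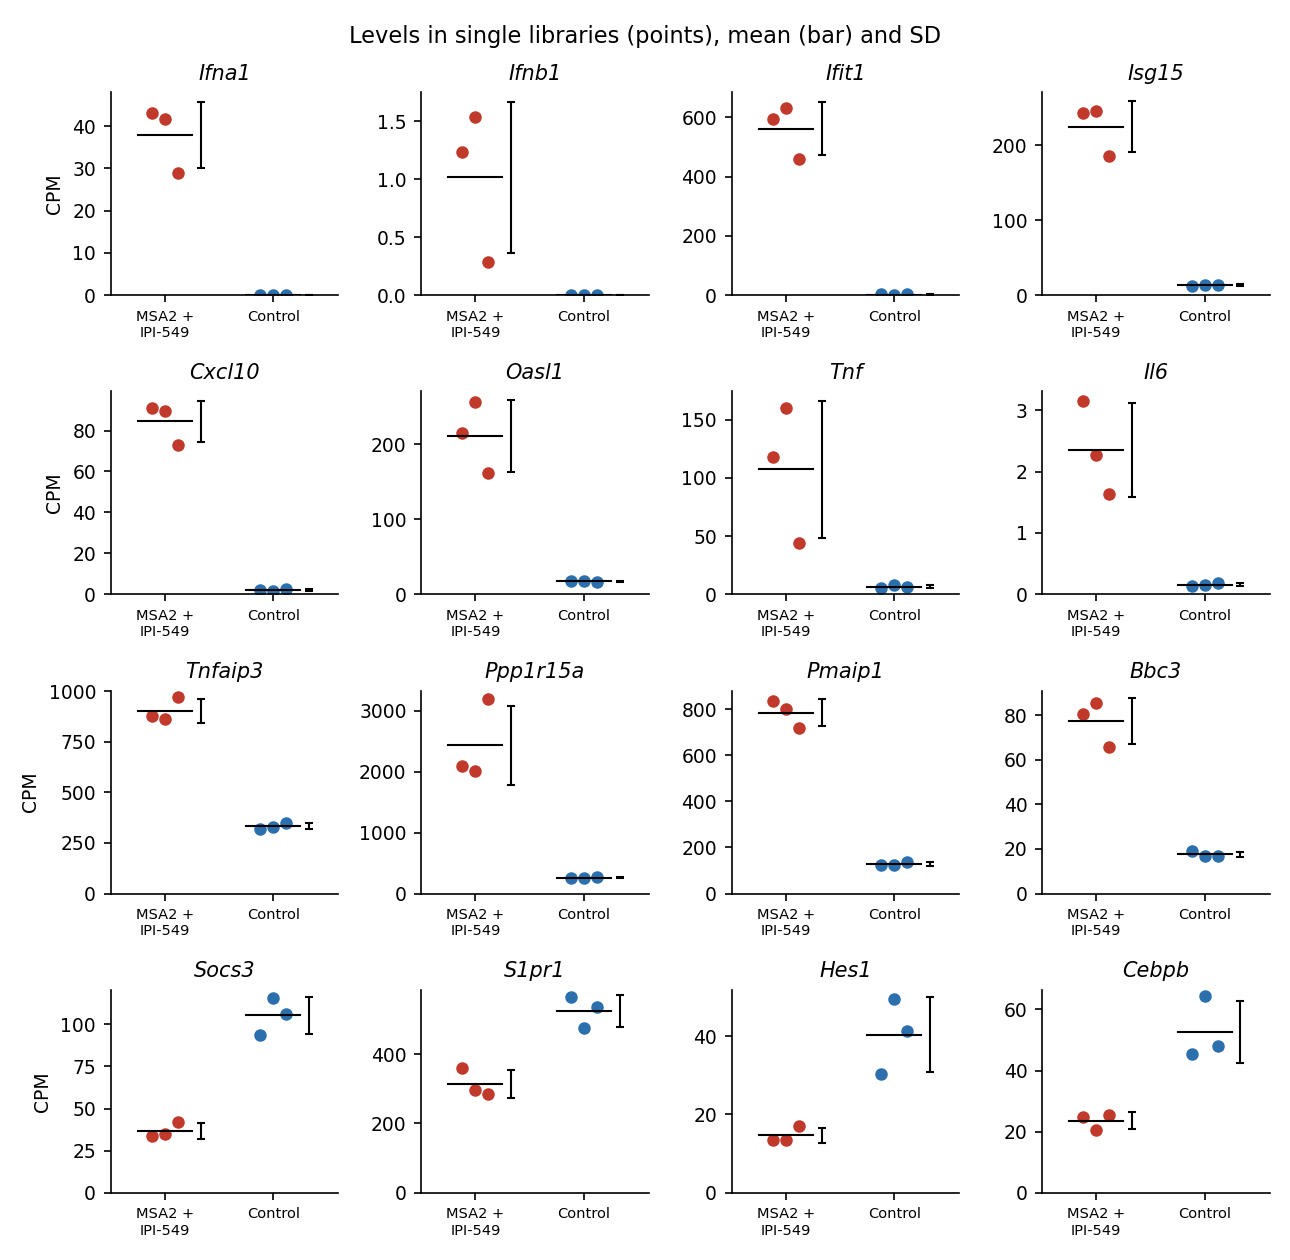
CPM of 16 named genes in each library (points), with the group mean (bar) and SD beside it, MSA2 plus IPI-549 on the left of each panel and Control on the right, 3 libraries each, every axis from 0. Replicate 3 of the combination, the rightmost red point, is the lowest for Tnf at 43.8 CPM and the highest for Ppp1r15a at 3190 CPM.

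A few NF-kB feedback genes rose. Of 25 NF-kB subunit and feedback genes 4 rose, none fell and 21 were not called (16.0% called, against 1.06% of all tested genes). Their median log2 fold change was -0.02. Tnfaip3 (A20), an enzyme that edits ubiquitin chains to end NF-kB signalling, had 876.9, 864.3 and 971.4 CPM in the combination and 320.4, 330.7 and 350.2 CPM in Control (log2 fold change 1.44 ± 0.08, SE, adjusted p = 2.81e-06, edgeR). Nfkbiz, the nuclear cofactor of Il6 transcription, rose by 1.73, the deubiquitinase gene Otud1 by 1.87, and Zc3h12a (Regnase-1, which cleaves Il6 mRNA) by 0.78 on the log2 scale. Nfkbia, the classical inhibitor, had 282.0, 286.4 and 445.5 CPM in the combination and 171.2, 173.4 and 155.7 CPM in Control, with no overlap but an adjusted p of 0.097 (edgeR). Its adjusted p was 0.00714 without MSA2 replicate 3.

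Stress and cell death genes included the most abundant transcript that rose by over 4-fold. Ppp1r15a (GADD34), which recruits a phosphatase to restart translation after eIF2 alpha phosphorylation, had 2097, 2015 and 3190 CPM in the combination and 254.9, 258.7 and 268.1 CPM in Control, a log2 fold change of 3.22 with an SE of 0.24 (adjusted p = 2.95e-05, edgeR). Of 22 tested genes of the integrated and endoplasmic reticulum stress list, 2 rose and 1 fell, with a median of 0.10 on the log2 scale. Called were 13.6% of the list, against 1.06% of all tested genes. Atf3, a stress-induced repressor, rose by 1.36, with 418.6, 378.3 and 303.7 CPM in the combination and 118.5, 147.4 and 162.0 CPM in Control. Hspa5, the endoplasmic reticulum chaperone BiP, had 1385, 1432 and 2141 CPM in the combination and 1099, 1154 and 1223 CPM in Control and was not called (adjusted p = 0.47, edgeR). Cebpb, a factor of myeloid differentiation and inflammation, moved the other way, with 24.8, 20.5 and 25.5 CPM in the combination and 45.5, 64.2 and 48.1 CPM in Control (log2 fold change -1.16, adjusted p = 0.00216, edgeR). Its exons overlap those of Tmem189.

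Of 18 tested BCL2 family genes 2 rose and none fell (11.1% called, against 1.06% of all tested genes), with a median log2 fold change of -0.01. Both genes that rose encode BH3-only proteins that promote cell death. Pmaip1 (Noxa), which antagonises MCL1, had 837.5, 800.4 and 720.7 CPM in the combination and 125.9, 122.8 and 136.0 CPM in Control, a log2 fold change of 2.62 with an SE of 0.10 (adjusted p = 6.36e-08, edgeR). Bbc3 (Puma) had 80.7, 85.3 and 65.8 CPM in the combination and 18.9, 16.8 and 17.0 CPM in Control, a log2 fold change of 2.14. Neither gene's groups came near each other. Bcl2, the survival gene of naive B cells, had 115.1, 112.5 and 120.1 CPM in the combination and 118.1, 113.1 and 115.4 CPM in Control, and Mcl1 had 537.2, 537.0 and 713.9 CPM in the combination and 672.3, 697.1 and 641.1 CPM in Control. Neither was called. A list of 17 tested p53 targets left out Pmaip1, Bbc3 and Sfn, so its count does not cover them. In that list 1 rose (5.88% called, against 1.06% of all tested genes). It was Plk2, a stress-induced kinase, with 896.2, 898.8 and 933.4 CPM in the combination and 319.6, 419.7 and 424.2 CPM in Control. The death receptor gene Tnfrsf10b, also a p53 target, had 8.33, 7.79 and 3.39 CPM in the combination and 14.6, 14.5 and 14.3 CPM in Control and was not called (adjusted p = 0.20, edgeR).

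Of 17 NRF2 targets 1 fell and none rose (5.88% called, against 1.06% of all tested genes), with a median log2 fold change of 0.08. Osgin1, an oxidative stress-induced growth inhibitor, had 2.12, 3.16 and 1.89 CPM in the combination and 7.13, 11.4 and 11.9 CPM in Control, a log2 fold change of -2.09 with an SE of 0.24 (adjusted p = 7.43e-04, edgeR). Immediate early, MAPK feedback and mRNA decay genes held 1 of 40 that rose and 2 that fell (7.5% called), with a median of 0.04. Zfp36l1, which promotes decay of AU-rich mRNAs, rose by 0.78, a call lost without Control replicate 2 (adjusted p = 0.0572). The ERK phosphatase gene Dusp5 fell by 0.69 and Spry2, an inhibitor of receptor tyrosine kinase signalling, fell by 0.72, and both calls were lost with some libraries left out. Those of Dusp5 were combination replicates 1 and 2 and Control replicate 2 (adjusted p up to 0.0538), and those of Spry2 were combination replicates 2 and 3 and Control replicates 1 and 2 (adjusted p up to 0.125). The related ERK phosphatases Dusp6 and Dusp4 differed by -0.50 and -0.41 without a call (adjusted p = 0.0511 and 0.078, edgeR).

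Combination replicate 3 was the highest library for Jun and Klf2, early response genes chosen after their values were seen. Jun had 279.3, 230.5 and 586.3 CPM in the combination and 136.5, 160.1 and 174.7 CPM in Control, and Klf2 had 757.4, 574.7 and 1490 CPM in the combination and 655.6, 614.7 and 632.5 CPM in Control, with no call for either (adjusted p = 0.32 and 0.69, edgeR). Over the 111 higher genes this library was the lowest of its group in 64 and the highest in 31. Among the MSA2 libraries, replicate 3 was likewise the highest for Jun at 641.7 CPM, for Klf2 at 1214 CPM and for Ppp1r15a at 2677 CPM. The part of this library's difference in the results was not tested beyond leaving it out, which gave 136 called genes.

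**Figure D3:**
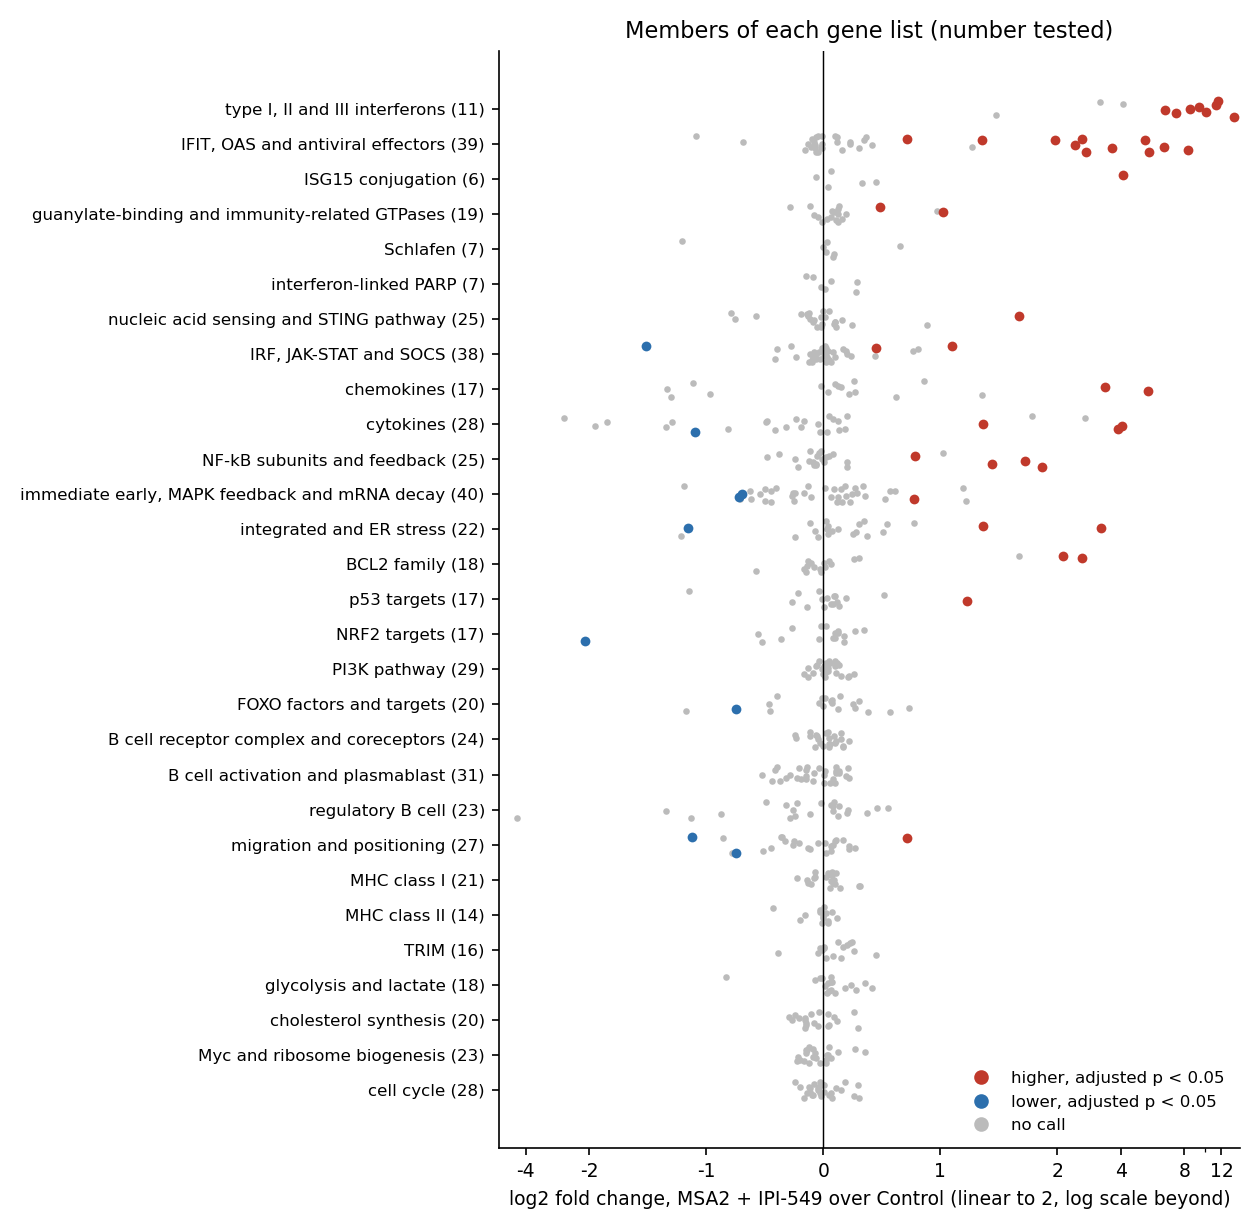
Log2 fold change of MSA2 plus IPI-549 over Control for every tested member of 29 gene lists, with the number tested in brackets, red for higher and blue for lower at an adjusted p under 0.05 and grey for no call. The axis is linear to 2 and logarithmic beyond. Interferons sit farthest to the right, with 8 of 11 called, all 8 with at most 1 count over Control. Grey points of the PI3K pathway and of B cell identity lists stay close to 0.

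The target pathway of IPI-549 showed no called gene. Over all tested genes 1.06% were called, so 0 calls among 29 genes is near that share. None of 29 PI3K pathway genes passed the test, all 29 lay within 0.5 of 0 on the log2 scale, from -0.17 for Pik3ip1 to 0.26 for Inpp4b, and the median was 0.02. Pik3cg, which encodes the gamma catalytic subunit, had 73.6, 74.8 and 61.5 CPM in the combination and 76.0, 74.1 and 79.3 CPM in Control, a log2 difference of -0.13 ± 0.11 (SE, adjusted p = 0.77, edgeR). Pik3cd, the delta subunit that dominates in B cells, had 245.9, 241.7 and 266.5 CPM in the combination and 229.4, 238.2 and 236.2 CPM in Control (adjusted p = 0.70, edgeR). Transcript levels do not report kinase activity. Of 20 FOXO factors and targets, which PI3K signalling restrains, 1 fell (S1pr1) and none rose (5.0% called), with a median of 0.07.

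Regulatory B cell genes were not called. None of 23 passed the test, which is near the 1.06% called over all tested genes for a list of this length. The median log2 fold change was -0.02. Il10 had 4.29, 4.24 and 0.902 CPM in the combination and 2.72, 2.38 and 3.08 CPM in Control, so that the combination libraries lay on both sides of Control (log2 difference 0.20 ± 0.41, SE, adjusted p = 0.92, edgeR). The MSA2 libraries held 16.02, 13.7 and 13.99 CPM of Il10. Ebi3 and Il12a, the subunits of IL-35, differed by 0.12 and -0.49 on the log2 scale (adjusted p = 0.83 and 0.41, edgeR). Cd274 (PD-L1), a checkpoint ligand, had 219.3, 215.5 and 218.5 CPM in the combination and 145.7, 151.9 and 176.8 CPM in Control, with no overlap, a log2 difference of 0.46 ± 0.10 (SE) and an adjusted p of 0.057 (edgeR). It passed the threshold in 8 of 19 alternative fits. Pdcd1lg2 (PD-L2) had 16.0, 17.3 and 8.85 CPM in the combination and 17.0, 17.1 and 18.6 CPM in Control.

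B cell identity and activation genes showed no call in any list. None of 24 B cell receptor and coreceptor genes, 31 activation and plasmablast genes, 14 MHC class II genes or 21 MHC class I genes passed the test, with median log2 differences between -0.08 and 0.06. The costimulatory genes Cd86 and Cd40 differed by -0.14 and 0.14 (adjusted p = 0.86 and 0.79, edgeR). Tnfrsf13c, the receptor for the survival factor BAFF, had 99.6, 112.2 and 89.4 CPM in the combination and 122.7, 160.9 and 148.5 CPM in Control, with no overlap, and missed the threshold (log2 difference -0.52, adjusted p = 0.061, edgeR). None of 16 TRIM, 18 glycolysis, 20 cholesterol synthesis, 23 Myc and ribosome biogenesis or 28 cell cycle genes was called. Over all tested genes 1.06% were called, so lists of these lengths without a call, here and among the B cell lists, are near that share. Data were simulated for 15793 genes with these library sizes, means and fitted dispersions, and every changed gene had a mean above 1 CPM. The test recovered 46.3% of genes changed by 1.5-fold, 86.6% by 2-fold and 100% by 4-fold, so changes under 2-fold in these lists may have gone uncalled. Recovery of genes at lower levels, or with effects of single libraries, was not simulated.

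Receptors that position B cells in lymphoid tissue changed in both directions. Of 27 migration and positioning genes 1 rose and 2 fell (11.1% called, against 1.06% of all tested genes). Their median log2 fold change was -0.11. Cxcr5, which draws B cells into follicles, had 1326, 1315 and 1455 CPM in the combination and 810.3, 798.3 and 884.2 CPM in Control (log2 fold change 0.72 ± 0.10, SE, adjusted p = 0.00308, edgeR). Its exons overlap those of Bcl9l. S1pr1, which guides exit into blood, had 359.2, 297.4 and 285.2 CPM in the combination and 564.3, 474.9 and 536.6 CPM in Control (log2 fold change -0.74 ± 0.13, SE, adjusted p = 0.0168, edgeR). S1pr4, a further sphingosine-1-phosphate receptor, had 36.3, 33.2 and 42.0 CPM in the combination and 109.4, 64.5 and 68.9 CPM in Control (log2 fold change -1.12). The groups did not overlap for any of the 3 receptors. The call of S1pr1 was lost without combination replicate 2 or 3 or Control replicate 1 or 3 (adjusted p up to 0.095), and that of S1pr4 without combination replicate 1 or 2 (adjusted p up to 0.0604).

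Hes1 and Hes5, both among the 25 lowest called genes, encode transcriptional repressors. Hes1 had 13.6, 13.4 and 17.0 CPM in the combination and 30.3, 49.5 and 41.3 CPM in Control (log2 fold change -1.46 ± 0.22, SE, adjusted p = 0.00813, edgeR). Hes5, its relative, had 0.801, 0.642 and 0.616 CPM in the combination and 1.78, 2.60 and 2.68 CPM in Control (log2 fold change -1.77, adjusted p = 0.00549, edgeR). Neither gene's groups overlapped, and the call of Hes1 was lost without combination replicate 1 or 2 (adjusted p up to 0.0537). Dll1, a Notch ligand chosen, like the receptors, after its values were seen, rose by 1.02 on the log2 scale, a call lost without Control replicate 2 (adjusted p = 0.0572). Notch1 had 43.9, 51.1 and 75.7 CPM in the combination and 35.5, 30.5 and 29.0 CPM in Control and missed the threshold (adjusted p = 0.0504, edgeR), while Notch2, the receptor that marginal zone B cells need, differed by 0.06.

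Further genes that rose belonged to several functions. Metrnl, a secreted factor, had 23.66, 23.99 and 21.18 CPM in the combination and 2.06, 2.47 and 2.25 CPM in Control, and Tiparp, a mono-ADP-ribosyltransferase, had 400.2, 396.3 and 437.4 CPM in the combination and 109.1, 124.2 and 133.3 CPM in Control. The transcription factor gene Ovol1 rose by 4.49, Rnd3 by 2.29 and the gap junction gene Gja1 by 2.18 on the log2 scale, all with under 2 CPM in every Control library. The zinc finger gene Zbtb3 rose by 2.45 and Enc1, an actin-associated protein, by 2.01. The calls of Gja1, Zbtb3 and Enc1 were each lost with some libraries left out, with adjusted p up to 0.148, 0.0851 and 0.128, in each case highest without Control replicate 2.

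Further genes that fell included Ier5l, with 10.97, 11.09 and 18.16 CPM in the combination and 37.7, 46.1 and 41.9 CPM in Control (log2 fold change -1.64, adjusted p = 0.0019, edgeR). The stratifin gene Sfn, a 14-3-3 protein, had 57.0, 57.9 and 51.2 CPM in the combination and 107.0, 114.6 and 103.8 CPM in Control, a log2 fold change of -0.97 with an SE of 0.09 (adjusted p = 1.05e-04, edgeR). Gimap9, a GTPase of lymphocytes, had 24.4, 27.2 and 19.2 CPM in the combination and 50.4, 64.8 and 55.8 CPM in Control, whereas its neighbour Gimap6 had 410.1, 375.6 and 363.2 CPM in the combination and 514.5, 488.8 and 437.8 CPM in Control without a call. These 3 called genes fell in every combination library. The zinc finger repressor gene Hic1 fell by 1.74, a call lost without combination replicate 1 or 3 or Control replicate 2 or 3 (adjusted p up to 0.119). Thbd (thrombomodulin) fell by 1.06, lost without Control replicate 2 (adjusted p = 0.0708), the small GTPase gene Rrad fell by 0.90, and Tor4a, a torsin ATPase, fell by 1.07. AI467606, with 28.6, 30.6 and 20.2 CPM in the combination and 76.1, 79.4 and 71.4 CPM in Control, fell by 1.52. Trmt12 fell by 1.14, Dmpk by 1.06, Lrrc10b by 0.98, Ankrd9 by 0.90 and Tnfaip8l2 by 0.84 on the log2 scale. The call of Trmt12 held with each library left out, whereas the others were lost without some libraries, with adjusted p up to 0.102 for Dmpk, 0.141 for Lrrc10b, 0.105 for Ankrd9 and 0.079 for Tnfaip8l2.

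Some genes that fell are markers of other blood cells. Cd28, the T cell costimulatory receptor, had 0.584, 0.550 and 0.264 CPM in the combination and 4.68, 1.92 and 1.24 CPM in Control. Ccr2, the monocyte chemokine receptor, had 0.455, 0.321 and 0.374 CPM in the combination and 1.40, 1.09 and 0.764 CPM in Control. Slc4a1, the red cell anion exchanger, had 0.606, 0.710 and 0.748 CPM in the combination and 1.70, 1.71 and 1.46 CPM in Control. No group overlapped for these 3 genes. The macrophage lectin gene Chil3 had 2 counts over the combination and 95 over Control, and Hba-a2, an alpha globin, fell by 0.92. In MSA2 these genes averaged 161.5 (Cd28), 46.3 (Ccr2), 44.0 (Slc4a1), 105.1 (Chil3) and 248.3 CPM (Hba-a2). The calls of Cd28, Ccr2, Chil3 and Hba-a2 were lost with some libraries left out, with adjusted p up to 0.199, 0.0679, 0.099 and 0.208. Of the 60 lower genes, 11 had an MSA2 mean over 2 times that of both other groups, among them Prkch, Il1b and Spry2.

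Of the marker sums of other blood cells, those of T cells, NK cells, neutrophils and mast cells and basophils were lower in the combination without overlap. Summed CPM of 14 T cell markers was 50.6 to 58.6 in the combination and 63.1 to 88.8 in Control, that of 10 NK cell markers 6.56 to 10.7 in the combination and 14.5 to 20.4 in Control, and that of 12 neutrophil markers 0.665 to 1.15 in the combination and 2.47 to 36.7 in Control. That of 8 mast cell and basophil markers was 2.22 to 5.16 in the combination and 5.49 to 7.79 in Control. Control replicate 1 held the highest of each of these sums, for neutrophils 36.7 against 7.68 and 2.47 CPM in Control replicates 2 and 3. Without it the median log2 fold change was -2.24 for T cell, -0.64 for NK cell, -2.37 for neutrophil and 0 for mast cell and basophil markers. With it these medians were -3.44, -1.59, -3.86 and -1.88. A fit of the combination and Control alone tested only 7 of the 14 T cell, 3 of the 10 NK cell, 4 of the 12 neutrophil and 1 of the 8 mast cell and basophil markers. Its medians were -2.28, -0.645, -4.38 and -0.648. The other markers passed the filter only through the MSA2 libraries. The medians thus rest in part on fitted values near 0 counts and are no measure of the size of the change. The T cell genes Cd3e and Bcl11b and the neutrophil gene Elane were at 0 in the combination, and Elane also in Control. Sums of 15 monocyte and macrophage markers (53.5 to 55.5 in the combination and 51.9 to 74.6 in Control) and of 9 erythroid markers (18.3 to 22.6 in the combination and 21.9 to 45.1 in Control) overlapped, as did those of 11 plasmacytoid dendritic cell markers (625.2 to 693.9 in the combination and 617.4 to 679.2 in Control), a cell type known for interferon alpha. Siglech, a defining gene of that cell type, was at 0.022, 0.115 and 0.154 CPM in the combination and 0.160, 0.044 and 0.135 CPM in Control. Nearly all of the plasmacytoid dendritic cell sum thus came from other listed genes, and its overlap does not measure that cell type. In such bulk libraries fewer cells of a type and less RNA per cell cannot be told apart, and the part of other cells in the lower genes was not tested. Of single markers, 1 of 14 T cell, 1 of 15 monocyte and macrophage and 2 of 9 erythroid genes fell, against 0.371% of all tested genes. None of the NK cell, neutrophil, mast cell, dendritic cell or platelet genes was called. These counts changed with Control replicate 3, the filter and the tool. Genes that fell numbered 10 for T cells, 4 for NK cells, 7 for neutrophils and 1 for mast cells and basophils without Control replicate 3. With DESeq2 they numbered 9 for T cells, 5 for NK cells, 5 for neutrophils and 1 for mast cells and basophils, and with no filter on low counts 12 for T cells, 4 for NK cells, 8 for neutrophils and 1 for mast cells and basophils.

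**Figure D4:**
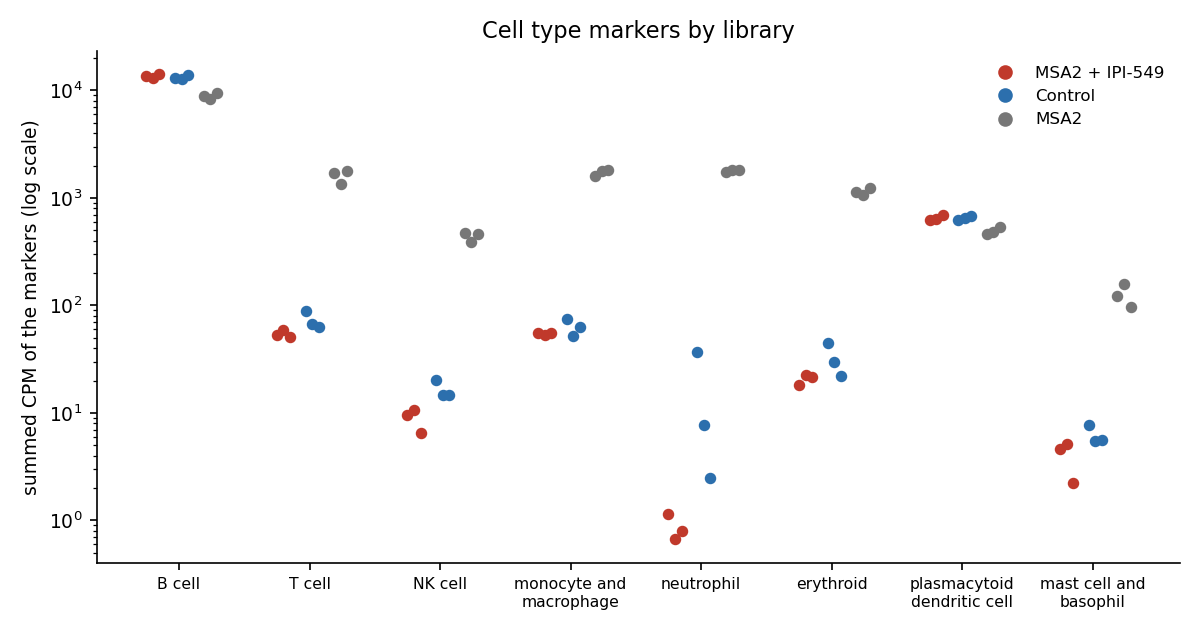
Summed CPM of the markers of 8 cell types in each library on a logarithmic axis, with MSA2 plus IPI-549 in red, Control in blue and MSA2 in grey, 3 libraries each. The B cell sums of MSA2 plus IPI-549 and Control overlap, and the T cell sums of the MSA2 libraries, 1334 to 1778 CPM, lie above both.

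Genes with few exons made up a larger share of the called genes, in both directions, than of all tested genes. Among protein-coding genes, 19 of 98 higher genes (19.4%) and 12 of 57 lower genes (21.1%) had 1 exon in their longest GENCODE M21 transcript, against 6.02% of 12965 tested genes. Up to 3 exons were found in 59.2% of the higher, 66.7% of the lower and 20.2% of all tested protein-coding genes. The median span from start to end was 9443 bases for the higher, 4873 bases for the lower and 23387 bases for all tested genes. Median Control levels were 23.7, 40.2 and 18.4 CPM in the same order. The higher genes include the 10 called genes of the chromosome 4 interferon cluster, and shares without that cluster were not computed.

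**Figure D5:**
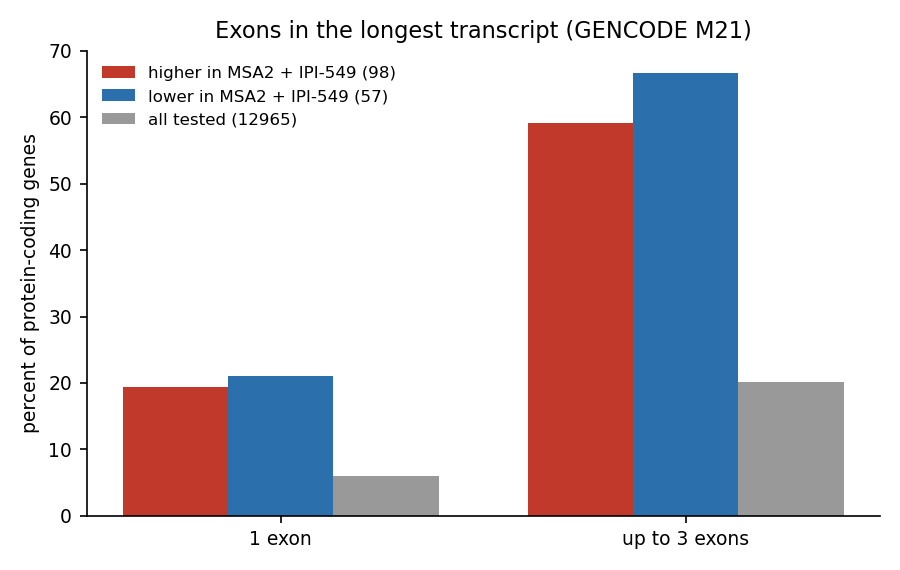
Percent of protein-coding genes with 1 exon or with up to 3 exons in the longest annotated transcript, for genes higher in MSA2 plus IPI-549, genes lower in it and all genes tested, with the number of genes in brackets. Both called sets have shares of 59.2 and 66.7% with up to 3 exons, against 20.2% of all tested genes.

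Set against MSA2 alone, the combination differed in 5985 genes (37%), 2279 higher (14.1%) and 3706 lower (22.9%). Marker sums differed between these groups. T cell markers summed to 50.6 to 58.6 CPM in the combination and 1334 to 1778 CPM in MSA2, neutrophil markers to 0.665 to 1.15 CPM in the combination and 1751 to 1830 CPM in MSA2, and B cell markers to 13160 to 14210 CPM in the combination and 8315 to 9537 CPM in MSA2. The part of other cells in this comparison was not tested. Of the 111 genes higher than Control, 54 were also higher than MSA2, 10 were lower and 47 were not called. Set against Control, MSA2 alone was called higher for 87 of the 111, lower for 5 and not called for 19. Marker sums of other cells differ between MSA2 and Control too. Ifit2 was higher in the combination than in MSA2 by 0.94, Pmaip1 by 1.05, Bbc3 by 1.21 and Cxcr5 by 1.02 on the log2 scale, and all 4 passed the test. The interferon genes differed in both directions. Ifna1, Ifna4 and Ifna16 were higher than in MSA2 by 1.32, 1.45 and 1.25 on the log2 scale, Ifna2 was lower (log2 difference -0.86, adjusted p = 0.0465, edgeR), and Ifna5, Ifna6, Ifnb1 and Ifnz were not called (log2 differences 0.07, -0.84, 0.08 and -0.66). The uncertain division of reads within this cluster applies here too. Cxcl10, with 91.2, 89.3 and 72.8 CPM in the combination and 228.5, 161.5 and 212.2 CPM in the MSA2 libraries, differed by -1.25 (adjusted p = 5.29e-05, edgeR), and Il6 by -1.03. Ifit1, Isg15, Tnf, Tnfaip3, Nfkbiz and Ppp1r15a were not called in this comparison. Of the 60 genes lower than Control, 24 were also lower than MSA2, 12 were higher and 24 were not called, and Socs3 was lower than in MSA2 by 1.04. Set against Control, MSA2 alone was called lower for 40 of the 60, higher for 15 and not called for 5.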

How the data were processed

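The authors deposited a table of expected counts per gene for 9 B cell libraries, and the values used here are whole numbers. Per the submitters' processing notes, cutadapt 4.8, FastQC 0.11.8, STAR 2.7.8a, RSEM 1.3.3 and MultiQC 1.20 were used with builds named GRCm38 and mm10. The annotation release and strand setting are not given in the sources used here, so genes with overlapping exons (34 of the 171 called) may share reads. Libraries were grouped by title. Members, gene lists and tests were chosen with earlier results of these data known.

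Expected counts were rounded and tested with edgeR 4.0.16 in R 4.3.3 (TMM factors, filterByExpr by group, quasi-likelihood F test, combination minus Control, all 9 libraries in one fit) with Benjamini-Hochberg adjustment at 0.05 over 16180 of 55491 genes, and the procedure was tested on simulated data. CPM used TMM-scaled library sizes. Depth was 44355591 to 51433008 counts in the 6 libraries compared, and mitochondrial genes took 2.95 to 3.14% in the combination and 2.23 to 3.73% in Control. The text names the 25 highest and 25 lowest called genes with at least 1 CPM and a symbol that is not a predicted one, up to 6 called members per list, members that moved against their list, and 19 key genes such as Il10 and Pik3cg; any other gene was picked with its values in view. The alternatives comprised other scaling, filters and dispersions, DESeq2 1.42.0, limma 3.58.1 voom, a minimum change, the 2 groups alone, a replicate block and each library left out. Exon numbers came from GENCODE M21 and promoter windows from RefSeq, found by symbol for 84 of 111 higher and 45 of 60 lower genes. Between the combination and MSA2, deviations of libraries with the same title suffix correlated at 0.117, 0.152 and 0.262. Those with unlike suffixes correlated at -0.227 to 0.0954. The suffix may thus pair libraries there, but the correlations are weak, and the fit reported did not model a pairing. The dendritic cell table of the series was not used.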

Additional observations from a re-analysis of the deposited data

How the results depend on the processing

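Called, higher and lower genes numbered 171, 111 and 60 in the fit reported, 359, 187 and 172 with no filter on low counts, 64, 55 and 9 when a change above 1.5-fold was required (2614 against MSA2), and 385, 193 and 192 with DESeq2. Higher genes were 64.9% of calls as reported, but 52.1% without a filter, 50.1% with DESeq2, 85.9% with the 1.5-fold minimum and 52.1% without Control replicate 3. DESeq2 called 170 of the 171 genes, and limma-voom 160. With 1 library left out the total ranged from 91 to 220, the higher genes from 68 to 142, the lower genes from 23 to 81 and calls against MSA2 from 4977 to 6080. Lower genes numbered 26, 30 and 33 without combination replicates 1, 2 and 3, and 23 without Control replicate 2, against 60. With the title suffix as a replicate block there were 260 calls, 147 higher and 113 lower. Between the combination and Control, same-suffix deviations correlated at -0.036, 0.014 and -0.02. So few libraries per group cannot show whether the suffix pairs them. Against MSA2 the block gave 6401 calls, compared with 5985. Of the 171 genes, 60 kept their call in all 19 alternatives, 52 higher and 8 lower, and none changed sign. Sign changed only for uncalled genes: the log2 difference of Il10 was -0.0945 with limma-voom, and with 1 library left out it ranged from -0.0919 to 0.643 for Il10, -0.0234 to 0.0251 for Bcl2, -0.299 to 0.0382 for Cd86 and -0.0698 to 0.521 for Il12b. The causes were not tested.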

Other observations

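The called genes that rose also held receptors and transporters that the lists do not name, chosen here after their values were seen. Ptger4, a receptor for prostaglandin E2, had 107.7, 94.4 and 104.6 CPM in the combination and 59.8, 59.8 and 63.6 CPM in Control, a log2 fold change of 0.74. Slc3a2, the heavy chain of the amino acid transporter CD98, had 355.9, 383.1 and 380.2 CPM in the combination and 159.9, 168.4 and 190.5 CPM in Control, a log2 fold change of 1.11. The 3 neighbouring genes Evi2, Evi2a and Evi2b on chromosome 11 rose by 0.86, 1.29 and 0.83 on the log2 scale, and Evi2 shares exon bases with both of the others.

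The table also held rows for reporter sequences that the labels do not mention. The eGFP row had 79.9, 76.4 and 106.7 CPM of raw library size in the combination and 67.2, 76.3 and 79.2 in Control.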
